A study of Caenorhabditis briggsae with 12 samples.

Results

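Of 23169 gene identifiers measured in whole Caenorhabditis briggsae hermaphrodites, 10 were chosen as genes lowered from day 6 of adulthood onward. The choice used CPM, in which each count is scaled to the same total for every library. A gene was taken if its lowest library of days 1 and 3 was at 1 CPM or more and at least 125% of its highest library of days 6 and 9. Its highest day 9 library also had to lie above its lowest day 6 library divided by 1.5. This leaves out genes whose day 9 libraries all lay at or below that limit. The day 3 mean had to be 25% to 150% of the day 1 mean, and the mean over the 12 libraries under 1000 CPM. The gap between days 1 and 3 and days 6 and 9 is therefore how the genes were chosen and is described here, not tested.

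All groups were of AF16, the wild-type laboratory strain, with no treatment, kept at 20 °C with E. coli OP50 as food. The groups were adults of days 1, 3, 6 and 9, with 3 libraries each. The populations were synchronised by bleaching. Offspring were removed every second day by settling and picking, so the removal of larvae limits what a library holds. Each library was made from a population of whole animals, so fewer cells of a kind and less RNA per cell cannot be told apart.

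C. briggsae hermaphrodites are self-fertile. Each makes a limited stock of sperm before it turns to making oocytes, and it lays fertilised eggs during the first days of adulthood, until its own sperm are used up. Whole-animal RNA of a young adult therefore includes RNA of the germ line and of embryos held in the uterus, beside that of gut, muscle, hypodermis and nerve cells. The series is about changes once reproduction ends, going by its title. Whether a step down between days 3 and 6 is related to the end of reproduction was not tested.

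None of the 23169 identifiers was found in a reference table of 22727 genes (assembly CB4). As the count table carries no gene names, the 10 genes are given by identifier. No function, position or sequence is given for them, and the labelled sex and tissue could not be checked against marker genes.

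The library totals ranged from 14276540 counts, in replicate 1 of day 9, to 33732477. Replicate 1 of day 9 stood apart: its log2 CPM values correlated across genes with those of replicates 2 and 3 at r = 0.834 and 0.812, where those 2 libraries correlated with each other at 0.994. Pairs within days 1, 3 and 6 correlated at 0.978 to 0.994. Day 9 was the most variable, with a median log2 standard deviation per gene of 0.53 against 0.103 to 0.183 elsewhere. Counts and calls that rest on day 9 are given with and without replicate 1.

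A clean step down at this boundary was rare. Of the 15788 genes tested below, 0.583% had every library of days 1 and 3 above every library of days 6 and 9, and 0.266% had this gap at 125% or more. Among the 10875 genes whose libraries of days 1 and 3 were all at 1 CPM or more, 61 had no overlap and 17 had the gap at 125% or more. The clause on day 9 removed 7 of the 17, and the other clauses removed none, which left the 10. Another 41 genes met every other clause and had no overlap, but a gap under 125%. Among genes averaging at least 10 CPM, WBGene00028628 and WBGene00030986 lay just inside the limit, at 1.27 and 1.28 times. WBGene00024299 and WBGene00035772 lay just outside it, at 1.22 and 1.18 times.

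**Figure D1:**
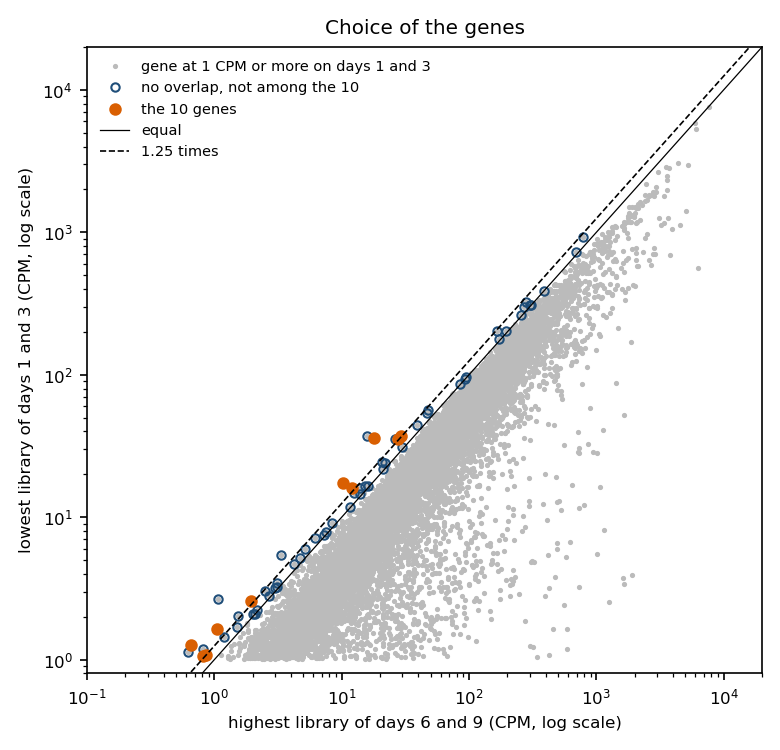
Each point is a gene at 1 CPM or more in every library of days 1 and 3, with its highest library of days 6 and 9 on the horizontal axis and its lowest library of days 1 and 3 on the vertical axis (both CPM, log scales). The 10 genes (filled) lie above the dashed line of 125%, and the open circles are the other genes without overlap, on or above the solid line of equality.

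Summed over the 10 genes, CPM was lower at day 3 than at day 1 and fell further at day 6. The summed level was 217.1 ± 9.21 CPM at day 1 (SD, n = 3 libraries, as for each day here). On day 3 it was 164.5 ± 7.39 CPM, on day 6 84.0 ± 6.30 CPM and on day 9 74.5 ± 23.3 CPM. By library, the sum lay at 158.6 to 226.6 CPM on days 1 and 3 and at 48.1 to 92.3 CPM on days 6 and 9, with the lowest value in replicate 1 of day 9. The libraries of days 1 and 3 did not overlap in the sum. The mean dropped by 52.6 CPM between them and dropped by 80.4 CPM between days 3 and 6. WBGene00032163 alone went from a mean of 67.8 CPM at day 1 to 18.5 CPM at day 3. Without replicate 1 the day 9 mean was 87.7 CPM. Days 6 and 9 together held 41.6% of the level of days 1 and 3, or 44.8% without that library, and the 4 genes with the highest CPM made up most of the sum on every day.

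Set against its own day 1 mean, the median gene of the 10 stood at 81.1% to 94.1% in the day 3 libraries. It stood at 42.5% to 45.5% in those of day 6, and at 20.9%, 35.6% and 28.9% in replicates 1, 2 and 3 of day 9. Over the 13325 tested genes that averaged at least 1 CPM at day 1, the same median was 83.6% to 84.2% at day 3 and 88.3% to 93.0% at day 6. It was 91.9%, 108.5% and 103.7% in the 3 day 9 libraries. The median of the 10 thus stood near that of the tested genes at day 3 and below it from day 6 on. Single genes of the 10 ranged from 25.45% to 225.6% in the day 3 libraries. The rule required the fall below each gene's own early level and made no comparison with other genes. As the median of the tested genes stayed closer to its day 1 level, the lower median of the 10 from day 6 on follows from the choice. It is no added result.

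**Figure D2:**
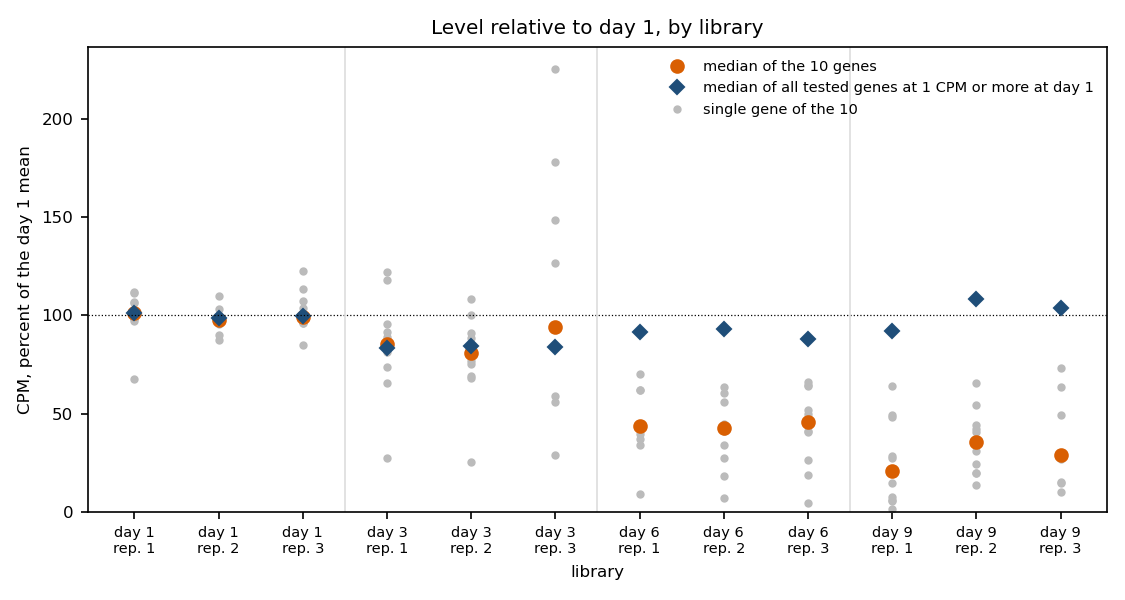
Level in each of the 12 libraries as a percent of the day 1 mean of the same gene (CPM). Grey points are the 10 genes, orange circles their median and blue diamonds the median of 13325 tested genes; the orange median lies at 42.5% to 45.5% at day 6 while the blue one lies at 88.3% to 93.0%.

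The genes fell into 5 with a mean of at least 10 CPM over the 12 libraries and 5 below that. CPM is not corrected for gene length, so this split sets how precisely a gene was counted and is no order of transcript numbers. In the upper 5, each library of days 1 and 3 held at least 427 counts of the gene. In the lower 5 the same libraries held 28 to 166 counts, and the day 9 libraries 2 to 34.

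WBGene00032163 had the deepest drop. In replicates 1, 2 and 3, its CPM was 75.8, 61.2 and 66.4 on day 1, 18.6, 17.3 and 19.5 at day 3, 6.02, 4.62 and 3.08 at day 6, and 0.770, 9.13 and 10.2 at day 9. It was already lower at day 3, at 0.272 of the day 1 mean, close to the limit of 25% set for that ratio. Its mean over days 6 and 9 was 13.1% of that over days 1 and 3, or 15.3% without replicate 1 of day 9, the smallest share among the 10 in both cases. At day 9 replicates 2 and 3 lay above all day 6 libraries and replicate 1 below them.

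WBGene00027805 was level or higher at day 3 and had the widest gap of the 10, at 1.99 times between its lowest early and its highest late library. It stood at 35.9, 36.1 and 35.8 CPM in the day 1 libraries, 44.0, 39.0 and 45.6 at day 3, 14.2, 14.8 and 17.96 at day 6, and 2.03, 15.9 and 17.8 at day 9. Each day 3 library exceeded each day 1 library, the one gene of the 10 where this held. At day 9 replicates 2 and 3 lay inside the day 6 range, and replicate 1 far below it.

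WBGene00030986 kept at or above its day 6 level at day 9 on average. Its CPM was 36.8, 36.5 and 38.8 at day 1, 35.7, 37.4 and 35.2 at day 3, 16.3, 16.7 and 24.7 at day 6, and 18.5, 24.6 and 27.4 at day 9. The day 3 mean was 0.966 of the day 1 mean, and the libraries of these days overlapped. Those of days 6 and 9 overlapped too, and replicate 3 was the highest library on both days.

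WBGene00028628 and WBGene00036909 had shallow steps, to 59.3% and 54.4% of the level of days 1 and 3, or 65.4% and 51.6% without replicate 1 of day 9. WBGene00028628 stood at 46.7, 44.6 and 44.6 CPM at day 1, 37.3, 40.1 and 42.6 at day 3, 28.1, 28.7 and 29.3 at day 6, and 12.4, 24.5 and 28.9 at day 9. WBGene00036909 stood at 20.2, 18.4 and 18.1 CPM at day 1, 16.8, 16.1 and 15.9 at day 3, 11.7, 10.5 and 12.1 at day 6, and 12.05, 5.81 and 5.27 at day 9. The day 9 libraries of these genes ran in opposite order. Replicate 1 was the low one for WBGene00028628 and the high one for WBGene00036909, where it equalled the day 6 level.

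WBGene00039539 stepped down at each day sampled. It stood at 4.36, 3.86 and 5.02 CPM at day 1, 3.59, 3.06 and 2.59 at day 3, 1.95, 1.498 and 1.81 at day 6, and 1.26, 1.07 and 1.32 at day 9. The libraries of each day lay wholly below those of the day before, the one gene of the 10 where this held at every step. Replicate 1 of day 9 lay between the other day 9 libraries.

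WBGene00023787 and WBGene00028353 were high in replicate 3 of day 3. WBGene00023787 stood at 1.63, 2.65 and 2.96 CPM at day 1, 1.78, 1.81 and 5.45 at day 3, 0.894, 1.06 and 0.635 at day 6, and 0.140, 0.471 and 0.349 at day 9. WBGene00028353 stood at 2.05, 1.87 and 1.85 CPM at day 1, 1.26, 1.47 and 2.86 at day 3, 0.651, 0.529 and 0.363 at day 6, and 0.140, 0.377 and 0.194 at day 9. For both genes that day 3 library exceeded every day 1 library. The value of replicate 1 of day 9 came from 2 counts for each gene, with an exact 95% Poisson interval of 0.0170 to 0.506 CPM that covers counting error only.

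WBGene00026983 shared the high replicate 3 of day 3, and WBGene00271733 had its lowest early value there. WBGene00026983 stood at 1.13, 1.11 and 1.246 CPM at day 1, 1.37, 1.06 and 2.07 at day 3, 0.813, 0.705 and 0.605 at day 6, and 0.560, 0.471 and 0.310 at day 9. WBGene00271733 stood at 2.16, 1.997 and 1.65 CPM at day 1, 1.78, 1.32 and 1.08 at day 3, 0.854, 0.352 and 0.786 at day 6, and 0.280, 0.816 and 0.581 at day 9. The day 9 libraries of WBGene00026983 lay wholly below those of day 6, and those of WBGene00271733 overlapped them.

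**Figure D3:**
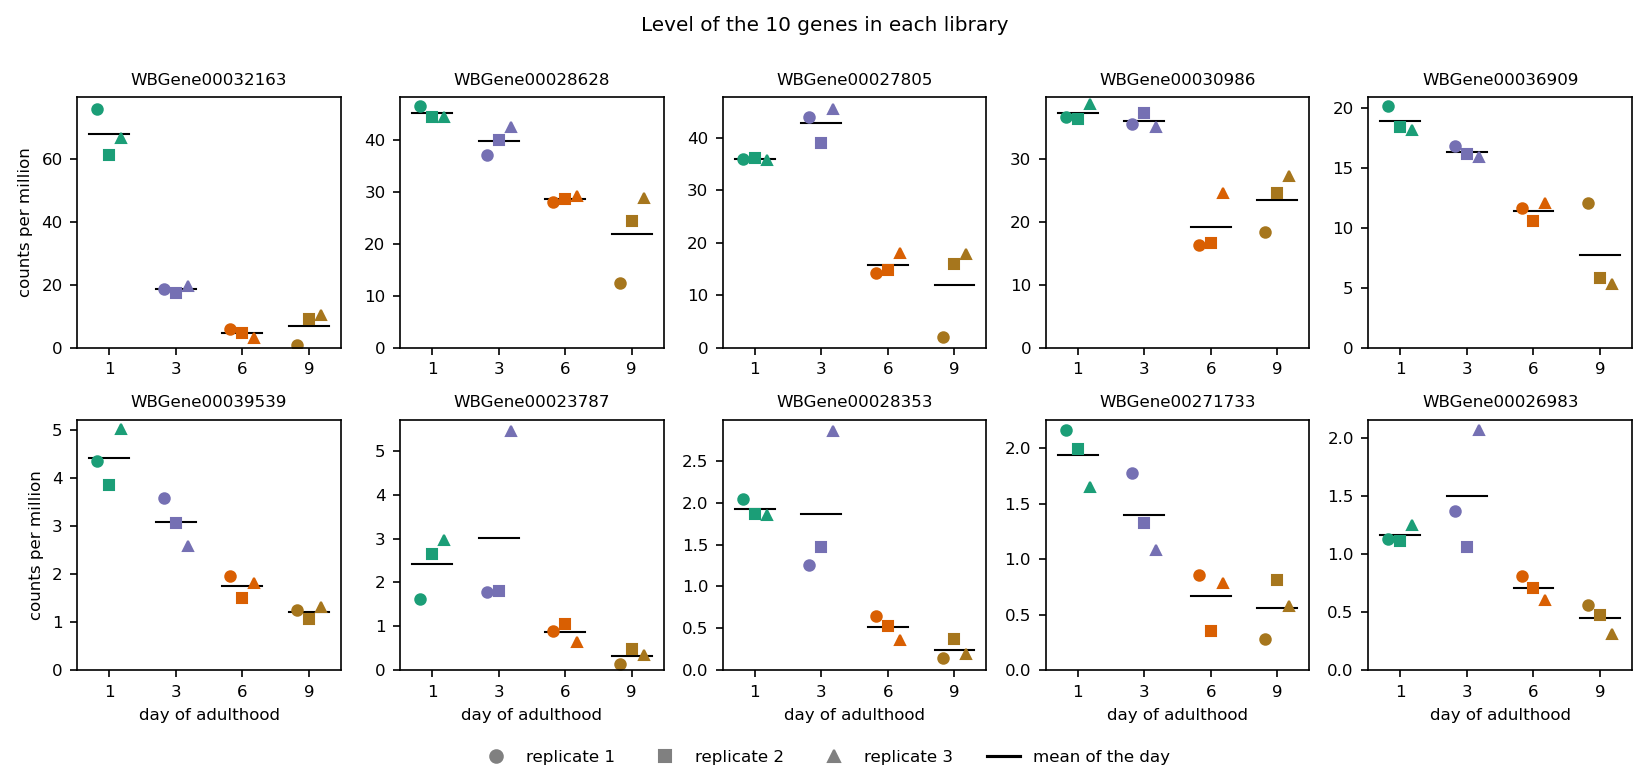
CPM of each of the 10 genes by day of adulthood, 1 panel per gene with its own axis from 0; symbols mark the 3 replicates and lines the mean of the day. In every panel the points of days 6 and 9 lie below those of days 1 and 3, and replicate 1 of day 9 (circle) is the lowest late point for 6 of the 10 genes.

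The counts were fitted with edgeR, a count model with 1 mean per day, over 15788 genes that passed a filter on low counts. All 10 genes passed it. In the contrast of days 6 and 9 with days 1 and 3, 4.13% of the tested genes were called lower at a Benjamini-Hochberg adjusted p under 0.05, and all 10 genes were among them. The rule used these same values, so the count of 10 carries no weight. All 10 were also called without replicate 1 of day 9, where 21.8% of the tested genes were. The fitted log2 fold changes describe the depth of the step, from -2.79 ± 0.45 (SE) for WBGene00032163 and -2.50 ± 0.29 for WBGene00028353 to -0.87 ± 0.16 for WBGene00028628. Their median was -1.47, and that of all tested genes was 0.00 to 2 decimals. When replicates 2 and 3 of day 9 were dropped the fit gave -4.28 for WBGene00032163, -2.84 for WBGene00027805 (-1.63 in the fit of all 12 libraries) and -0.62 for WBGene00036909 (-1.004 in the fit of all 12).

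The calls of 2 genes in this contrast were lost when single libraries were left out. That of WBGene00027805, with an edgeR adjusted p of 0.0223, went to 0.0535, 0.0547 and 0.0539 without replicates 1, 2 and 3 of day 1. It went to 0.0530 without replicate 1 and 0.0529 without replicate 3 of day 3, and to 0.0580 and 0.0584 without replicates 1 and 2 of day 6. That of WBGene00036909 went from an edgeR adjusted p of 0.0125 to 0.0525 without replicate 2 of day 6.

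Taken alone, the step from day 3 to day 6 was called for 2 of the 10 genes. The rule used the libraries of both days, so the calls and p-values at this step describe the fit and support nothing about the group. The steps from day 1 to day 3 and from day 6 to day 9 were bounded by the rule, and their calls are read in the same way. In the fit of all 12 libraries 0.538% of the tested genes were called lower at day 6, and WBGene00030986 and WBGene00028353 were among them. Their log2 fold changes were -1.06 ± 0.19 and -2.04 ± 0.39 (SE), with edgeR adjusted p of 0.0229 and 0.029. In all 10 genes every day 6 library lay below every day 3 library, as the rule requires, against 15.1% of the tested genes. The median log2 fold change of the 10 was -1.23 and that of all tested genes -0.13.

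How many of the 10 passed at this step changed with the libraries that were in the fit. Replicate 1 of day 9, which takes no part in the step, was one of these. Without that library all 10 were called lower, against 17.2% of the tested genes. The log2 fold changes hardly moved, and the standard errors shrank, for WBGene00032163 from -2.19 ± 0.62 to -2.20 ± 0.17 and for WBGene00027805 from -1.61 ± 0.53 to -1.61 ± 0.12. With day 9 left out altogether, a choice made after the data were seen, again all 10 were called, against 11.7% of the tested genes. The fit with only days 3 and 6 called 7, against 5.49%, and DESeq2 on all libraries called 6, against 1.73%.

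Leaving out 1 library of days 1, 3 or 6 ended both calls of the full fit in each case except replicate 3 of day 6, which ended that of WBGene00028353 alone. The edgeR adjusted p of WBGene00028353 was then 0.0656, 0.0654 and 0.0651 without replicates 1, 2 and 3 of day 1, 0.0509, 0.0768 and 0.0724 without those of day 3, and 0.0805, 0.13 and 0.0864 without those of day 6. For WBGene00030986 it was 0.0504, 0.0516 and 0.0505 without those of day 1, 0.0873, 0.102 and 0.0607 without those of day 3, and 0.105 and 0.115 without replicates 1 and 2 of day 6. The log2 fold changes of the 2 genes in these fits ran from -2.25 to -1.58 for WBGene00028353 and from -1.33 to -0.82 for WBGene00030986.

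Between days 1 and 3, while both were high, the rule limited the day 3 mean to 25% to 150% of the day 1 mean, so all 10 genes lie in that range by choice. The day 3 mean was under 80% of the day 1 mean for 3 genes, from 80% to 125% for 6 and above 125% for 1. In CPM, 4 genes had all day 3 libraries below all day 1 libraries, against 46.9% of the tested genes. These were WBGene00032163, WBGene00028628, WBGene00036909 and WBGene00039539. WBGene00027805 had them above, against 30.0% of the tested genes.

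The CPM ratios of this step depend on scaling. In the edgeR fit, which scales the libraries by TMM factors of 1.04 to 1.09 at day 1 and 0.865 to 0.889 at day 3, WBGene00028628 had a log2 fold change of 0.10 ± 0.22 and WBGene00036909 of 0.07 ± 0.28 (SE). The median log2 fold change of all tested genes was 0.02 under TMM, -0.13 under median-of-ratios and -0.26 under upper-quartile scaling.

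One of the 10 genes was called between days 1 and 3, WBGene00032163, which fell by 1.59 ± 0.60 (SE) on the log2 scale with an edgeR adjusted p of 0.0499; 18.8% of the tested genes were called lower. It was called with all 3 scalings and by DESeq2, against 26.1% of the tested genes in the latter. The edgeR adjusted p was 2.83e-06 without replicate 1 of day 9, where the change was -1.58 ± 0.16 and 30.8% of the tested genes were called lower. It was 0.112, 0.0922 and 0.101 without replicates 1, 2 and 3 of day 1, 0.118, 0.107 and 0.106 without those of day 3, 0.0501, 0.0542 and 0.0638 without those of day 6, and 0.0577 without replicate 2 of day 9. Its call therefore rested on most single libraries.

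None of the 10 was called higher at day 3, where 28.8% of the tested genes were. By edgeR 0 of them reached an unadjusted p under 0.05 in that direction, against 32.5% of the tested genes. DESeq2 called 0, against 19.1%. Without replicate 1 of day 9 WBGene00027805 and WBGene00026983 were called higher at day 3, at log2 fold changes of 0.55 ± 0.11 and 0.67 ± 0.26 (SE) and edgeR adjusted p of 0.000966 and 0.0387, against 36.5% of the tested genes. WBGene00027805 was also called in the fit of only days 1 and 3, against 33.5% of the tested genes.

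Between days 6 and 9, while both were low, the means of 7 genes went below 80% of their day 6 level, against 17.0% of the tested genes. Those of 2 stayed within 80% to 125%, against 32.6%. That of WBGene00032163 was 1.47 times its day 6 mean, and 50.3% of the tested genes lay above 125%. Without replicate 1 of day 9, 5 genes lay below 80%, against 27.9%, and 3 within the limits, against 20.5%. Above 125% there were then 2 genes, against 51.7%. WBGene00028628 and WBGene00027805 then stood at 0.930 and 1.08 times their day 6 mean, and WBGene00030986 joined WBGene00032163 above 125%, at 1.35 and 2.12 times. The day 9 libraries were under each of day 6 for WBGene00039539, WBGene00023787 and WBGene00026983, against 9.83% of the tested genes. Replicates 2 and 3 of day 9 were both under every day 6 library for 4 of the 10, against 30.5%. For none of the 10 did all 3 day 9 libraries lie above, against 19.7%. One gene of the 10, WBGene00039539, was called lower at day 9, against 15.5% of the tested genes. It fell by 0.71 ± 0.23 (SE) on the log2 scale with an edgeR adjusted p of 0.0302. None was called higher, against 29.3%, and 0 reached an unadjusted p under 0.05 in that direction by edgeR, against 34.8% of the tested genes. For a fall 6 did, against 19.9%. DESeq2 called 3 lower, against 15.3%, and 0 higher, against 31.2%.

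With median-of-ratios factors 4 of the 10 were called lower, against 12.6% of the tested genes, and with upper-quartile factors 0, against 9.94%. The call of WBGene00039539 was lost with upper-quartile factors, with an edgeR adjusted p of 0.0873, and in the fit of only days 6 and 9, at 0.155, where 0 of the 9 genes of the group that passed its filter and 0.294% of the tested genes were called lower. It was also lost without replicates 1 and 3 of day 6, at 0.0874 and 0.0711, and without replicates 2 and 3 of day 9, at 0.114 and 0.0671. When replicates 2 and 3 of day 9 were dropped together, a choice made after the data were seen, it stood at 0.271.

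The day 9 libraries differed most for 2 of the genes. Replicate 1 of WBGene00032163 stood at 0.0796 of the mean of replicates 2 and 3, and that of WBGene00027805 at 0.121. Among the other 8 genes this ratio ran from 0.342 for WBGene00023787 to 2.18 for WBGene00036909. Replicate 1 was the lowest day 9 library for 7 of the 10 genes, against 56.3% of the tested genes, and the highest for WBGene00036909 and WBGene00026983.

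Which genes were called at the step from day 6 to day 9 depended on the day 9 libraries fitted, as did the direction for WBGene00032163. Without replicate 1, WBGene00032163 was called higher at day 9, by 0.88 ± 0.19 (SE) on the log2 scale (edgeR adjusted p = 0.00115), where 42.4% of the tested genes were higher. Then 4 genes were called lower, against 33.7%. WBGene00036909 had the largest of these falls, at -1.26 ± 0.12 with an edgeR adjusted p of 1.96e-06, and the others were WBGene00026983 at -1.03 ± 0.39, WBGene00039539 at -0.79 ± 0.24 and WBGene00028628 at -0.32 ± 0.09. With replicate 1 alone at day 9, WBGene00032163 was among 3 genes called lower, against 10.7% of the tested genes. In the CPM values, 1 of the 10 genes had replicates 2 and 3 of day 9 both above all day 6 libraries, against 52.3% of the tested genes.

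**Figure D4:**
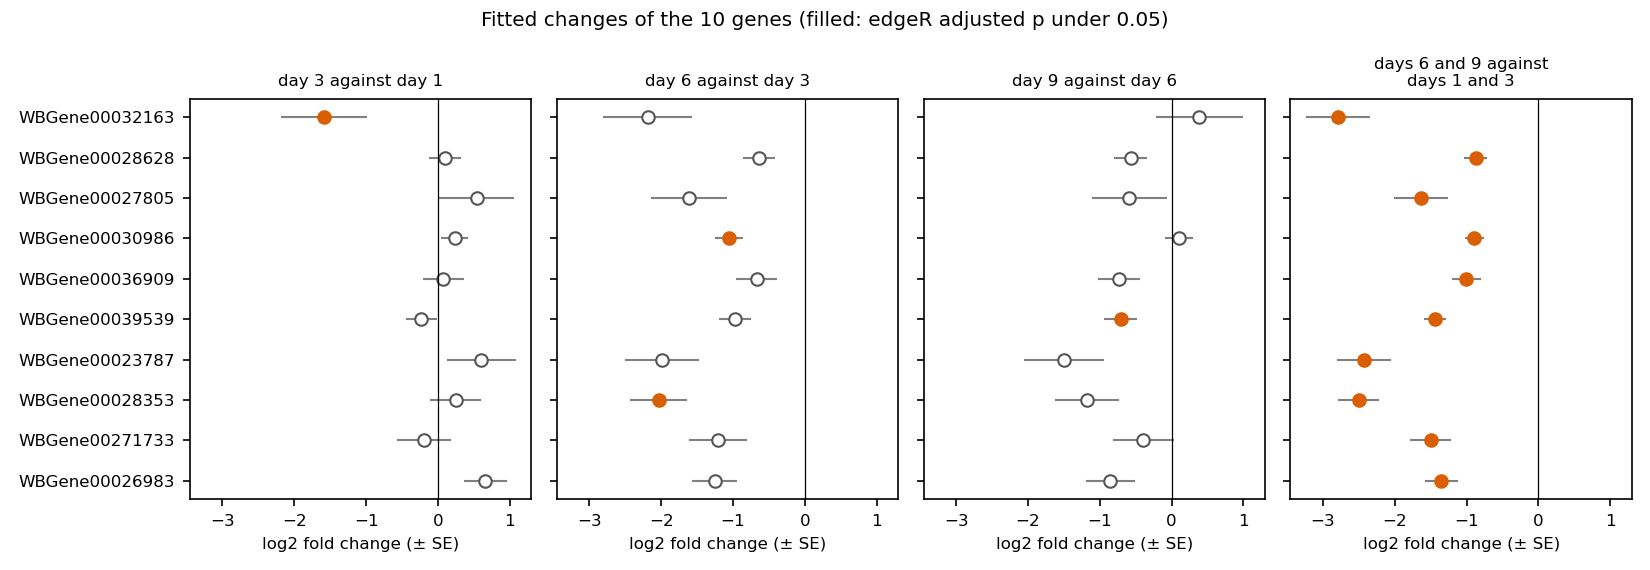
Log2 fold changes of the 10 genes in the edgeR fit of all 12 libraries, with bars of 1 SE, for the 3 steps in age and for days 6 and 9 against days 1 and 3. Filled points have an adjusted p under 0.05: 1 gene at day 3, 2 at day 6, 1 at day 9 and all 10 in the contrast on which they were chosen.

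The rule was applied with 1 library left out, and that library was then read. Its values took no part in that choice, but the rule itself was set with earlier results of these data known. Without each of the 3 day 1 libraries in turn, 10, 11 and 10 genes were chosen. For all of them the left-out library lay above all libraries of days 6 and 9, against 17.4% to 17.6% of the tested genes. Without each of the day 3 libraries, 10, 13 and 20 genes were chosen. The left-out library lay on the higher side for 9, 13 and 16 of them, against 4.34% to 5.40% of the tested genes. For day 6, 11, 11 and 17 genes were chosen. For 11, 11 and 15 of these the left-out library lay below all libraries of days 1 and 3, against 21.95% to 24.4%. For day 9, 9, 8 and 13 were chosen and 9, 8 and 11 lay on the lower side, against 28.2%, 11.5% and 17.2%. Libraries of the same day resemble each other, so these shares describe the libraries and carry no test.

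Of the 10 genes, 7 were chosen under every one of these 12 omissions. WBGene00023787 was not chosen without replicate 1 of day 3, replicate 3 of day 6 or replicate 2 of day 9, and WBGene00028353 not without replicate 2 of day 9. WBGene00036909 was not chosen without replicate 1 of day 9, the library in which its day 9 level was high. Replicate 3 of day 3 limited the choice most, since 10 further genes were taken without it.

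Each of the 10 genes was set against the others across the libraries. The log2(CPM + 1) values of each gene correlated with the median of the other 9 at r = 0.758, for WBGene00026983, to 0.907, for WBGene00271733, over 12 libraries. The genes were chosen for a common step and share the libraries, so such values follow from the choice. They do not show that the genes varied together beyond that step. Outside the group, the genes most like its median profile were WBGene00032975 at r = 0.925, WBGene00270344 at 0.921 and WBGene00037276 at 0.912. The mean of WBGene00032975 went from 356.1 ± 20.7 CPM (SD over the 3 libraries) at day 1 to 292.0 ± 12.3 at day 6 and 263.5 ± 26.5 at day 9, with a gap of 1.01 times, under the limit. WBGene00037276 went from 366.3 ± 20.2 to 273.8 ± 5.41 and 258.6 ± 10.5 CPM with a gap of 1.16 times. WBGene00270344 was under 0.5 CPM in every library.

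The 7 genes that had the gap but failed the clause on day 9 mark where the group ends. WBGene00037431 stood at 56.2, 42.4, 14.5 and 0.549 CPM on days 1, 3, 6 and 9 as means, and WBGene00041295 at 121.5, 41.9, 24.8 and 12.6 CPM. The other 5 averaged under 5 CPM over the 12 libraries.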

How the data were processed

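Trizol was used to isolate RNA, and TruSeq (RNA, v2) to prepare the libraries, as the labels' protocols state. The authors deposited raw counts per gene, 1 column per library. STAR, featureCounts and MultiQC are named in the submitters' processing notes; the sources used here give no version, genome build, annotation or strand setting, so genes that share reads with near-identical or overlapping genes are uncertain. Days and replicates came from the titles. The labels do not say that replicates were separate cultures, so p-values reflect the spread among these samples alone, and that spread may be technical. Same-day libraries differed beyond sampling noise (chi-square per degree of freedom 4.23 to 288).

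The members, lists and tests were chosen with earlier results of these data known. Lists by gene symbol could not be read, since no identifier matched a symbol. All members were named, with the genes next to the limit and the 3 most like the group; the other genes outside it were chosen after their values were seen. edgeR 4.0.16 in R 4.3.3 was run on the deposited counts (filterByExpr, TMM, robust quasi-likelihood, 8 residual degrees of freedom, all genes adjusted together), after a check on simulated counts. The spread was shared between days, and day 9 was the most variable. Alternatives were 2 other scalings, no filter, DESeq2 1.42.0, fits of the days compared, a replicate block and each library left out. A count of 0 allows up to 0.0889 CPM in the deepest and 0.210 CPM in the shallowest library, taking 3 counts as the limit.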

Additional observations from a re-analysis of the deposited data

How the results depend on the processing

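The number of genes that met the rule was 10 with TMM-normalised library sizes and 14 with median-of-ratios factors, 9 of them among the 10 in both cases. It was 4 with a gap of 1.5, 26 with a gap of 1.1, 5 with a lowest early level of 5 CPM, and 8 to 20 with single libraries left out. The summed level of the 10 on days 6 and 9 was 41.6% of that on days 1 and 3, and 38.8% and 38.3% with these scalings.

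Of the 10 genes called lower on days 6 and 9, 8 to 10 stayed called with single libraries left out. In those fits 2.15% to 21.8% of the tested genes were called lower. All 10 stayed called with median-of-ratios factors (5.07% of the tested genes), upper-quartile factors (4.36%), no filter (2.61%) and DESeq2 (1744 of 15788 tested genes). For the fall from day 3 to day 6, called in 2, the counts were 6 with DESeq2, 7 with only the days compared, 10 with no day 9 library or with replicate 1 as the lone day 9 library (7.85% of the tested genes), and 0 to 10 with single libraries left out (0.049% to 17.2%). For the fall from day 6 to day 9, called in 1, they were 4 with median-of-ratios factors, 0 with upper-quartile factors, 3 with DESeq2, 0 with only the days compared (9 of the 10 genes passed that filter), 3 with replicate 1 as the lone day 9 library, and 0 to 4 with single libraries left out (6.11% to 33.7%). Rises at day 9 numbered 0 to 1 with single libraries left out (9.10% to 42.4%). For the fall from day 1 to day 3, called in 1, the counts were 2 with replicate 1 as the lone day 9 library (38.0%) and 0 to 1 with single libraries left out (13.0% to 30.8%). Rises at day 3 numbered 1 with only the days compared, with no day 9 library (32.3%) or with replicate 1 as the lone one (29.1%), and 0 to 2 with single libraries left out (6.17% to 36.5%). The cause of these changes was not tested. A lone day 9 library takes its spread from the other days.

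With the replicate number as a block, 1 gene was called lower at day 6, 3 at day 9 and 0 at day 3, against 0.222%, 14.8% and 18.3% of the tested genes. Same-numbered libraries deviated together at r = -0.353 to 0.477, with negative values for replicate 2 only. These values do not settle whether the numbers pair the libraries. With the block, 10 genes stayed called lower on days 6 and 9, against 3.34% of the tested genes.

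Over the fold changes of single genes followed through these alternatives, 342 values kept direction and side of the threshold. Another 44 lost and 33 gained a call, and 0 changed sign. Most of these values compare early with late libraries, where the rule required each early library to lie above each late one. Their direction was thus largely set by the choice of genes, so the lack of sign changes among them is no added result. For the step to day 9 only WBGene00039539 was followed, and between the first 2 days sampled only WBGene00032163. The tally therefore leaves out WBGene00032163 at day 9, whose direction depended on which libraries of that day were fitted. In the 5 genes under 10 CPM, counts as low as 2 in a day 9 library limit the precision.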
